A study of Mus musculus with 9 samples.

Results

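Interferon response genes are the transcripts that cells make when interferons bind their receptors. The genes described here are a set of 33 named members of that response. A named gene was kept if a probe set of the array table was annotated to it alone, and the brightest such probe set stood for the gene. All 33 had one, out of 18193 genes measured in the same way.

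The samples were C57BL/6 mouse T lymphocytes kept for 24 h in 1 of 3 cultures. In the syngeneic co-culture they met C57BL/6 dendritic cells, in the allogeneic co-culture BALB/c dendritic cells, both at 20 T cells per dendritic cell. In the antibody culture they received anti-CD3e and anti-CD28, each at 0.1 µg/ml, with no dendritic cells named. All 3 groups went through the same further steps. The harvested cells were incubated with CD11c beads, and T cells were kept by negative magnetic selection. They were then exposed to ultraviolet A light (400 mJ/cm2 first), and RNA bound to Argonaute (AGO), the protein that carries microRNAs, was immunoprecipitated, amplified and hybridised to 1 array per sample. Each group had 3 arrays, labelled as biological replicates 1 to 3, and the labels name no animals or separate cultures, so p-values measure the spread between these arrays. No arrays of input RNA were analysed here. A signal therefore holds both the abundance of a transcript and its share bound to AGO, and in such bulk samples fewer cells of a type and less RNA per cell cannot be told apart.

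Type I interferons bind a receptor pair on nearly every cell, activate the kinases JAK1 and TYK2, and drive a complex that holds STAT2 and IRF9 to a DNA element called the interferon-stimulated response element. Interferon gamma, made by activated T cells and natural killer cells, uses another receptor pair and acts through gamma-activated sites and the factor IRF1. Antiviral proteins such as the IFIT, OAS and MX families respond mainly to type I interferon, whereas guanylate-binding proteins, immunity-related GTPases and the immunoproteasome respond strongly to interferon gamma.

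Promoter sequence was available for 27 of the 33 genes, from RefSeq windows of GRCm38.p6 that run from 250 bases before to 50 after an annotated start. The core of the interferon-stimulated response element, searched on both strands as GAAA, any 2 bases and GAAA again, occurred in the windows of 14 of these 27 genes (51.9%), against 3.99% of the 27025 genes in the table. The letters of a gamma-activated site, TTCNNNGAA on either strand, occurred in 9 of 27 (33.3%), against 9.55%. Both were present in 5 genes, and the matches overlapped in 1 of them, Bst2. Stretches before the gene start are given for 3 antiviral genes with low signals in the antibody culture (Ifit1, Rsad2, Oas3) and for 3 GTPase genes with small differences between the cultures (Gbp2, Igtp, Irgm2), because both kinds hold the same element. Capitals mark the matches, and each stretch reads 5′ to 3′ on the strand of the gene.

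Ifit1 (chr19:34640760-34640838, plus strand): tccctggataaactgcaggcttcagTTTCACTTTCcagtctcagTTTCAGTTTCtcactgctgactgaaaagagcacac

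Rsad2 (chr12:26456538-26456597, minus strand): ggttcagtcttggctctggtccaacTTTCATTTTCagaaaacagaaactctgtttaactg

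Oas3 (chr5:120777700-120777759, minus strand): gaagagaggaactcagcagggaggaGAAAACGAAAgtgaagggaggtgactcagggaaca

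Gbp2 (chr3:142620579-142620638, plus strand): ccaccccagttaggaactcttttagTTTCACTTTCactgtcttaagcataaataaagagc

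Igtp (chr11:58199486-58199555, plus strand): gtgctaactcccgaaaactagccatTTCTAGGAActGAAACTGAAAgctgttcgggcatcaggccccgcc

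Irgm2 (chr11:58214877-58214947, plus strand): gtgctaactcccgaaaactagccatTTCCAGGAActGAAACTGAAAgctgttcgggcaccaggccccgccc

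Ifit1 held 2 matches to the response element core, which began 104 and 85 bases before the gene start. In Igtp and Irgm2 a TTCNNNGAA match and a response element core began 11 bases apart, and the 2 stretches were identical at 68 of 70 bases. The 14 genes with a response element core had a median log2 difference of −0.55 between antibody and syngeneic cultures, and the 13 genes with a window but no match had −0.60. For TTCNNNGAA the medians in the same comparison were −0.22 over the 9 genes with a match and −0.76 over the 18 without one. These medians have no test, the genes of each motif differ in role, and a match shows only that the letters are there.

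Values below are log2 signals of the deposited table, on which a difference of 1 is a doubling. Array medians were 4.85 to 6.24 over the 18193 genes and followed the replicate number, so cultures were compared within each number. In number 1 the allogeneic and antibody arrays were close to equal, with an SD of 0.103 for their difference over all genes, against 0.493 in number 2 and 0.680 in number 3. Between arrays of 1 number, 17.9% to 49.0% of genes had exactly equal values. Among the 33 genes, 15 had such an equal pair in number 1, and 6 of them (Irf9, Oasl1, Iigp1, Psmb9, Cxcl9 and Cxcl10) were equal in all 3 cultures there. In numbers 2 and 3 there were 2 genes each with an equal pair. An exact tie is not a measured lack of change. A tied gene counts below as neither lower nor higher, which holds down shares of genes lower or higher in every number. Of the 33 genes 29 exceeded the array median on all 9 arrays. Mx2 exceeded it on none, and Mx1, Oasl1 and Cxcl9 failed to on 2, 6 and 7 arrays.

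The antibody culture was first compared with syngeneic co-culture. The antiviral effector genes had lower signals with antibodies, 9 of the 15 by more than 1 log2 unit on average, while the mean differences of the interferon-inducible GTPases and antigen processing genes lay between −0.26 and 0.30. No single gene passed the test over all genes. In limma, 0 of 18193 genes were called at an adjusted p under 0.05 (0.0%), with or without the replicate number as a block, and hence 0 of the 33. At an unadjusted p under 0.05 there were 141 lower and 15 higher genes without the block, and 830 lower and 406 higher with it. With the block 13 of the 33 genes were lower at an unadjusted p under 0.05 and 0 were higher, against 4.56% and 2.23% of all genes. Without the block 3 were lower (Ifit3, Mx1 and Rsad2), against 0.775%. The mean was lower in 26 of the 33, against 47.2% of all genes, and lower by more than 1 in 10, against 2.81%. The smallest adjusted p of the 33 genes was 0.681 with the block in limma and 1 without it. In 16 of the 33 genes the antibody array was lower in all 3 numbers, against 9.15% of all genes, and 0 were higher in all 3, against 7.8%. Exact ties in numbers 1, 2 and 3 made up 34.2%, 29.5% and 22.3% of all genes, against 8, 0 and 0 of the 33. Without number 1, 22 of 33 were lower in both other numbers, against 17.3%, and 6 were higher, against 18.0%. The median of the 33 genes was −0.58, and −0.68, −0.34 and −0.56 without numbers 1, 2 and 3.

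The 15 antiviral effectors had a median log2 difference of −1.09 between antibody and syngeneic cultures, against 0.00 over all genes. All 15 had a lower mean, and 12 were lower in every number. The medians within numbers 1, 2 and 3 were −0.94, −1.13 and −1.06. In numbers 2 and 3 all 15 were lower.

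Rsad2 encodes viperin, an enzyme that makes a chain-terminating nucleotide against viral polymerases. Its signal stood at 8.11, 9.77 and 9.18 in syngeneic replicates 1, 2 and 3 and at 6.97, 6.95 and 7.24 in the antibody culture, so the groups did not overlap. The log2 difference was −1.97 ± 0.72 (SE), a 3.91-fold lower signal, or ± 0.49 with the replicate block, where the adjusted p in limma was 0.684. Its 3 probe sets all had the lower sign. The groups did not overlap in 4 of the 33 genes, Rsad2, Mx1, Ifit2 and Gbp3, each lower with antibodies, against 1.52% of all genes, and 0 were higher, against 0.412%.

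IFIT proteins bind viral RNA that lacks the cap methylation of the host. Ifit1 stood at 8.99, 10.71 and 10.78 in syngeneic and at 7.08, 8.45 and 9.72 in antibody cultures, lower in each number by 1.06 or more. The mean log2 difference of Ifit1 was −1.74 ± 0.40 (SE, with the block), or ± 0.91 without it. Ifit3 stood at 10.83, 12.04 and 11.84 against 9.80, 10.05 and 11.16. Its log2 difference was −1.23 ± 0.34 (SE, with the block), or ± 0.53 without it. In both genes the groups overlapped, with the antibody array of number 3 above the syngeneic array of number 1. Ifit2 had the smaller difference of −0.60, at 10.06, 9.70 and 9.50 against 9.09, 9.12 and 9.26.

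MX proteins are dynamin-like GTPases that trap viral nucleocapsids. Mx1 stood at 5.77, 6.54 and 6.58 in syngeneic and at 5.05, 4.76 and 4.95 in antibody cultures. The antibody arrays of Mx1 all lay under the lowest syngeneic one, with a log2 difference of −1.37 ± 0.62 (SE, without the block), or ± 0.38 with it. In numbers 2 and 3 those antibody values did not exceed the array median, so the size is not exact. Mx2 differed by −0.18, at signals below the array median throughout.

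Oligoadenylate synthetases make a messenger that switches on an RNA-degrading enzyme. Oas3 stood at 6.45, 9.14 and 9.68 in syngeneic and at 5.51, 7.28 and 8.01 in antibody cultures. With the block this difference had the smallest p among the 33 genes (log2 −1.49 ± 0.31 SE, adjusted p = 0.681 in limma). Without the block its SE was 1.08, and the smallest p belonged to Rsad2. Oas1a, at 7.79, 9.45 and 10.22, had 7.49, 8.48 and 8.22 with antibodies. Oas2, at 5.74, 8.07 and 7.62, had 5.26, 7.01 and 5.92. The OAS-like genes went the same way. Oasl2 stood at 8.59, 10.39 and 10.48 against 6.76, 8.02 and 9.55, and Oasl1 was equal in number 1 and lower by 1.12 and 1.74 in numbers 2 and 3.

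Isg20, an exonuclease of viral RNA, stood at 6.70, 8.72 and 9.95 in syngeneic and at 5.43, 7.24 and 7.38 in antibody cultures. The log2 difference of Isg20 was −1.77 ± 0.46 (SE, with the block), or ± 1.10 without it. Xaf1, an interferon-induced antagonist of an apoptosis inhibitor, differed by −0.96, with 9.76, 9.91 and 11.36 against 8.23, 9.11 and 10.81. The remaining effectors differed less. Eif2ak2, the kinase PKR that stops translation on double-stranded RNA, differed by −0.51, and Bst2, the tetherin that holds virions at the membrane, by −0.22.

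**Figure D1:**
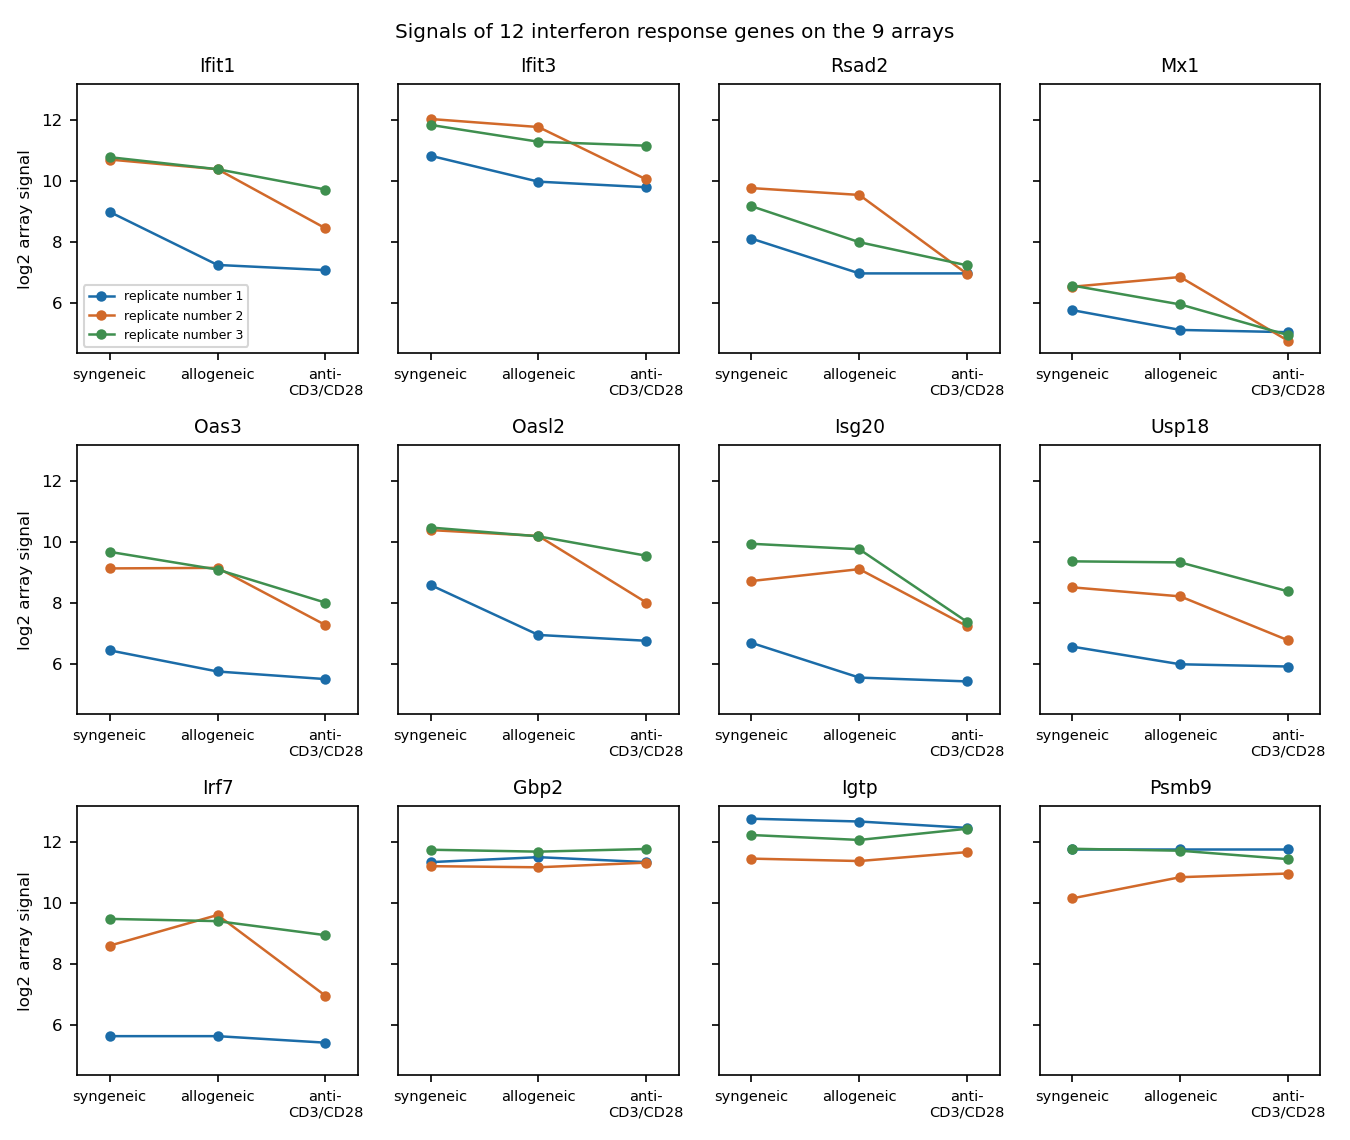
Log2 array signals (vertical axis) of 12 of the 33 genes in the 3 cultures (horizontal axis), with each line joining the arrays of 1 replicate number. In the antiviral genes the antibody point is the lowest of each line or level with the allogeneic one, whereas Gbp2 stays between 11.17 and 11.77 on all 9 arrays.

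Usp18 encodes a protease that also blocks signalling at the type I receptor. It stood at 6.57, 8.52 and 9.37 in syngeneic and at 5.92, 6.78 and 8.38 in antibody cultures, lower in each number. The log2 difference of Usp18 was −1.12 ± 0.28 (SE, with the block), or ± 0.98 without it. Parp14, an ADP-ribosyltransferase of interferon and interleukin-4 signalling, was also lower in each number, by 0.53 on average.

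Among the transcription factors the differences were smaller or less even. Irf7, the factor that amplifies type I interferon production, stood at 5.64, 8.60 and 9.48 in syngeneic and at 5.42, 6.96 and 8.95 in antibody cultures, lower in each number but most in number 2. Stat2 differed by −0.60, −1.17 and 0.03 in numbers 1, 2 and 3, and 1 of its 2 probe sets did not share the sign of the mean. Irf9 and Irf1 differed by −0.20 and −0.18, with 95% intervals from −0.60 to 0.20 and from −0.54 to 0.17 with the block.

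Cxcl9 and Cxcl10 encode chemokines that draw cells with the receptor CXCR3. Cxcl10 stood at 7.59 in all 3 cultures of number 1, and at 9.07 and 10.29 in syngeneic against 8.10 and 9.09 in antibody cultures of numbers 2 and 3. The log2 difference of Cxcl10 was −0.72 ± 0.25 (SE, with the block), or ± 0.79 without it. Cxcl9, at 4.14 in all cultures of number 1, had 5.31 and 6.66 against 4.31 and 5.05. Of these Cxcl9 values only 6.66 exceeded its array median.

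The 7 GTPases had a median log2 difference of 0.04 between antibody and syngeneic cultures and a range from −0.26 to 0.08, with medians of −0.28, 0.18 and 0.10 in numbers 1, 2 and 3. The families of these proteins take part in the defence against intracellular parasites and bacteria. Gbp2 stood at 11.34, 11.21 and 11.75 in syngeneic and at 11.34, 11.33 and 11.77 in antibody cultures. The 95% interval of its difference ran from −0.16 to 0.25 with the block, and from −0.62 to 0.72 without it. Intervals of the other GTPases are given with the block. Igtp stood at 12.77, 11.46 and 12.23 against 12.47, 11.67 and 12.44, with an interval from −0.29 to 0.37. For Iigp1, Irgm2 and Ifi47 the intervals reached no further than −0.39 and 0.37. In number 1 Gbp2 and Iigp1 were exactly tied between these cultures. The fit takes a tie as a difference of 0, so their intervals may be too narrow. Irgm1 was less precise, with an interval from −0.58 to 0.61. The means of 5 GTPases were higher and those of Gbp3 and Irgm2 lower with antibodies. Gbp3 stood at 9.26, 9.35 and 9.83 against 9.25, 9.25 and 9.15, with a mean difference of −0.26 that came mainly from number 3, and Irgm2 differed by −0.04.

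Psmb8 and Psmb9, catalytic subunits of the immunoproteasome, and Tap1, a subunit of the peptide transporter, supply peptides for MHC class I. Psmb9 stood at 11.77, 10.16 and 11.78 in syngeneic and at 11.77, 10.97 and 11.44 in antibody cultures. In number 2 both proteasome genes were higher with antibodies, by 0.81 for Psmb9 and 0.86 for Psmb8, and by 0.69 and 0.73 in the allogeneic culture of that number. In number 1 Psmb9 was equal in all 3 cultures, and in number 3 it was lower than in syngeneic culture by 0.34 with antibodies and by 0.06 in allogeneic culture. Psmb8 differed with antibodies by 0.08 in number 1 and −0.04 in number 3. The mean differences from syngeneic culture were 0.16 for Psmb9 and 0.30 for Psmb8, and 1 of the 2 probe sets of Psmb8 did not share that sign. Tap1 differed by −0.05 (95% interval −0.38 to 0.28 with the block), with 3 of 4 probe sets sharing the sign.

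**Figure D2:**
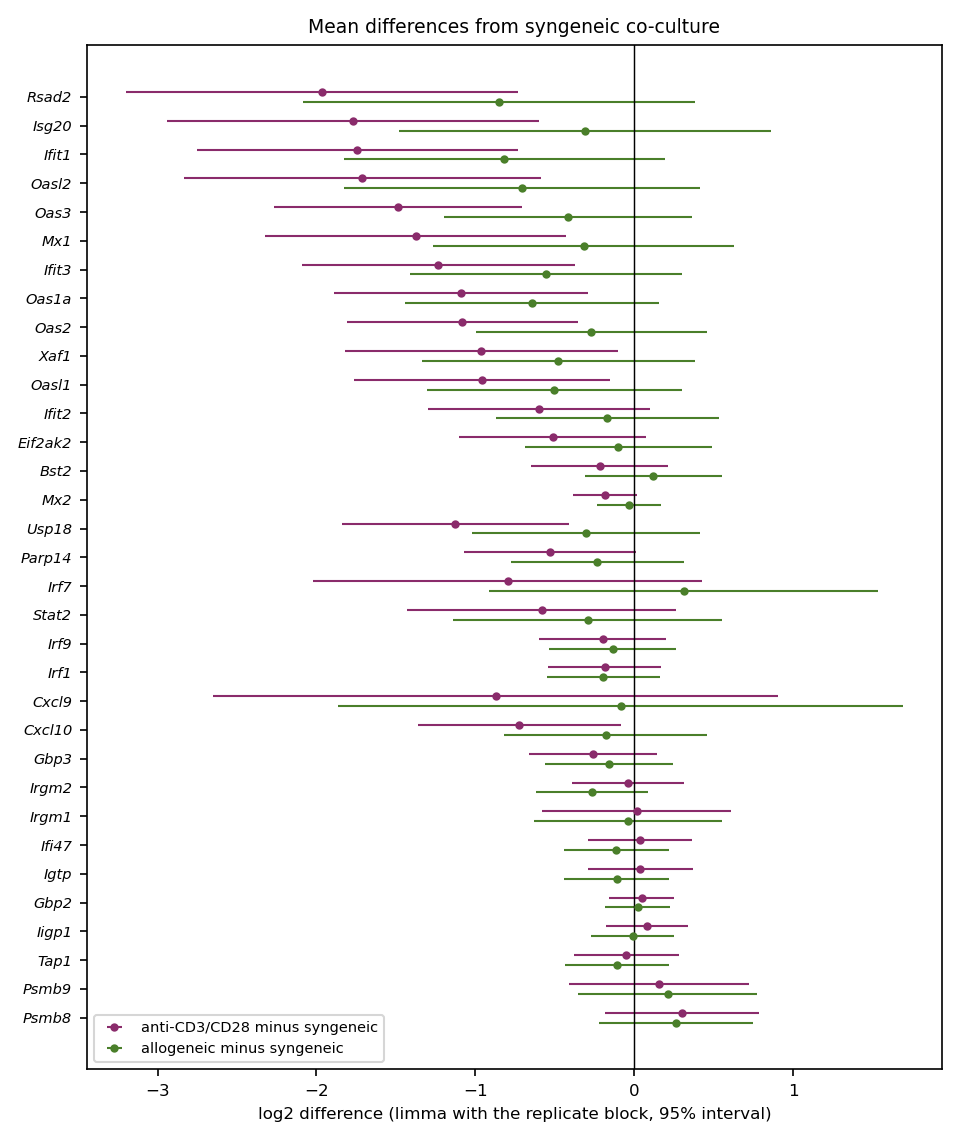
Mean log2 differences from syngeneic co-culture (horizontal axis) of the 33 genes, ordered by role, for antibody and allogeneic cultures; bars are 95% intervals from limma with the replicate block. With antibodies the interval of Oas3 runs from −2.27 to −0.71 and that of Gbp2 from −0.16 to 0.25, and in allogeneic culture every interval includes 0. Gbp2 is tied between antibody and syngeneic arrays in number 1.

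Between allogeneic and syngeneic co-cultures, which differ in the strain of the dendritic cells, the antiviral genes were again lower on average. The gap was larger in numbers 1 and 3 than in number 2. The 33 genes had a median log2 difference of −0.18, against 0.03 over all genes, with medians of −0.23, 0.00 and −0.18 in numbers 1, 2 and 3. In limma 0 of 18193 genes were called (0.0%), with or without the block. At an unadjusted p under 0.05 there were 21 lower and 6 higher genes without the block and 402 and 423 with it, and 0 of the 33 were among them, against 0.115% lower without the block, and 2.21% lower and 2.33% higher with it. The mean was lower in 28 of the 33, against 41.7% of all genes, and lower by more than 1 in 0, against 0.753%. In 10 of the 33 genes the allogeneic array was lower in all 3 numbers, against 7.96% of all genes, and 0 were higher in all 3, against 7.29%. Ties made up 32.1%, 17.9% and 26.5% of all genes in numbers 1, 2 and 3, against 9, 2 and 1 of the 33. Without number 1, 14 were lower in both other numbers, against 15.5%, and 2 were higher, against 18.7%. The groups overlapped in all 33 genes, against 0.451% of all genes not overlapping and lower and 0.192% not overlapping and higher. This comparison and the one before share the syngeneic arrays.

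The median gap of the antiviral effectors was larger in number 1 than in the other numbers. The 15 genes had median differences of −0.69, −0.07 and −0.39 in numbers 1, 2 and 3. In number 1, Ifit1 stood at 7.25 in allogeneic and 8.99 in syngeneic culture, and its gap was 0.32 in number 2 and 0.39 in number 3. Oasl2 stood at 6.96, 10.20 and 10.19 in allogeneic culture, lower than syngeneic by 1.64, 0.19 and 0.29. Xaf1 stood at 8.26 and 9.76 in the allogeneic and syngeneic cultures of number 1, and differed by 0.21 and −0.14 in the others. Rsad2 was lower in all 3 numbers, by 1.14, 0.22 and 1.18, as was Oas1a, at 7.49, 8.90 and 9.14. Isg20, at 5.56, 9.11 and 9.77, was lower by 1.14 in number 1 and higher by 0.39 in number 2.

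Irf7 was the gene with the highest mean difference of the 33, at 0.31. It was equal in number 1, higher by 1.01 in number 2 and lower by 0.07 in number 3. Cxcl9 went opposite ways, lower by 1.52 in number 2 and higher by 1.27 in number 3, where it stood at 7.93. In number 2 neither Cxcl9 value exceeded its array median, and 1 of its 2 probe sets did not share the sign of the mean. The GTPases had a median log2 difference of −0.11. Igtp, Irgm2 and Ifi47 were lower in all 3 numbers by at most 0.32, and the 95% interval of Irgm2 ran from −0.62 to 0.09 with the block.

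Allogeneic and antibody cultures were compared last, a comparison that shares arrays with both others. The antiviral genes were higher in the allogeneic culture of numbers 2 and 3 and near equal in number 1. The 15 genes had a median log2 difference of 0.68, with medians of 0.05, 1.17 and 0.67. All 15 were higher in both numbers 2 and 3. Over the 33 genes the median was 0.41, against 0.04 over all genes, and 19 were higher in both numbers 2 and 3, against 16.5%, and 5 were lower in both, against 9.15%. Without numbers 1, 2 and 3 the median of the 33 was 0.57, 0.16 and 0.30. In limma 0 of 18193 genes were called (0.0%), with or without the block. At an unadjusted p under 0.05 there were 1 lower and 23 higher genes without the block and 61 and 144 with it. Without the block 0 of the 33 were among them, against 0.0055% lower. With the block 5 of the 33 were higher (Isg20, Mx1, Oas2, Oas3 and Usp18), against 0.792%, and 0 were lower, against 0.335%. In 12 of 33 the allogeneic array was higher in all 3 numbers, against 4.39%, and in 0 it was lower in all 3, against 2.58%. Ties made up 49%, 21.6% and 28.8% of all genes in numbers 1, 2 and 3, against 10, 0 and 1 of the 33. The mean was lower in 9 of the 33, against 35.0%, and lower by more than 1 in 0, against 0.187%. Of the 33 genes 1, Mx1, had groups that did not overlap, against 0.269%, though in number 1 it stood at 5.12 against 5.05, and 0 did not overlap and were lower, against 0.055%.

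The gaps were larger in numbers 2 and 3 than in number 1. Isg20 stood at 9.11 and 9.77 in allogeneic against 7.24 and 7.38 in antibody cultures there, and at 5.56 against 5.43 in number 1. Irf7 stood at 9.61 against 6.96 in number 2. Rsad2 stood at 9.55 against 6.95 in number 2 and was level at 6.97 in number 1. The GTPases had a median log2 difference of −0.09, and 5 of the 7 were lower in allogeneic culture in both numbers 2 and 3, the 5 counted above. No difference among the 33 genes exceeded 0.335 in number 1, while the largest was 2.65 in number 2 and 2.88 in number 3.

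The allogeneic array thus changed its place between the other cultures with the number. In number 1, 11 of the 15 antiviral effectors lay nearer to the antibody than to the syngeneic array (73.3%), as did 53.7% of all genes. In number 2, 14 of the 15 lay nearer to the syngeneic array (93.3%), against 28% of all genes. In number 3, 10 of the 15 did (66.7%), against 43.3%. Genes equally near to both are counted in these shares, 6221, 5370 and 4056 of 18193 in numbers 1, 2 and 3. Among the 15 effectors they were 2, 0 and 0. Nearer to the syngeneic array in number 1 were 13.3% of the effectors and 12.1% of all genes. Nearer to the antibody array were 6.67% and 42.5% in number 2 and 33.3% and 34.4% in number 3. Each share rests on 3 arrays that are compared with each other, and it has no test.

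**Figure D3:**
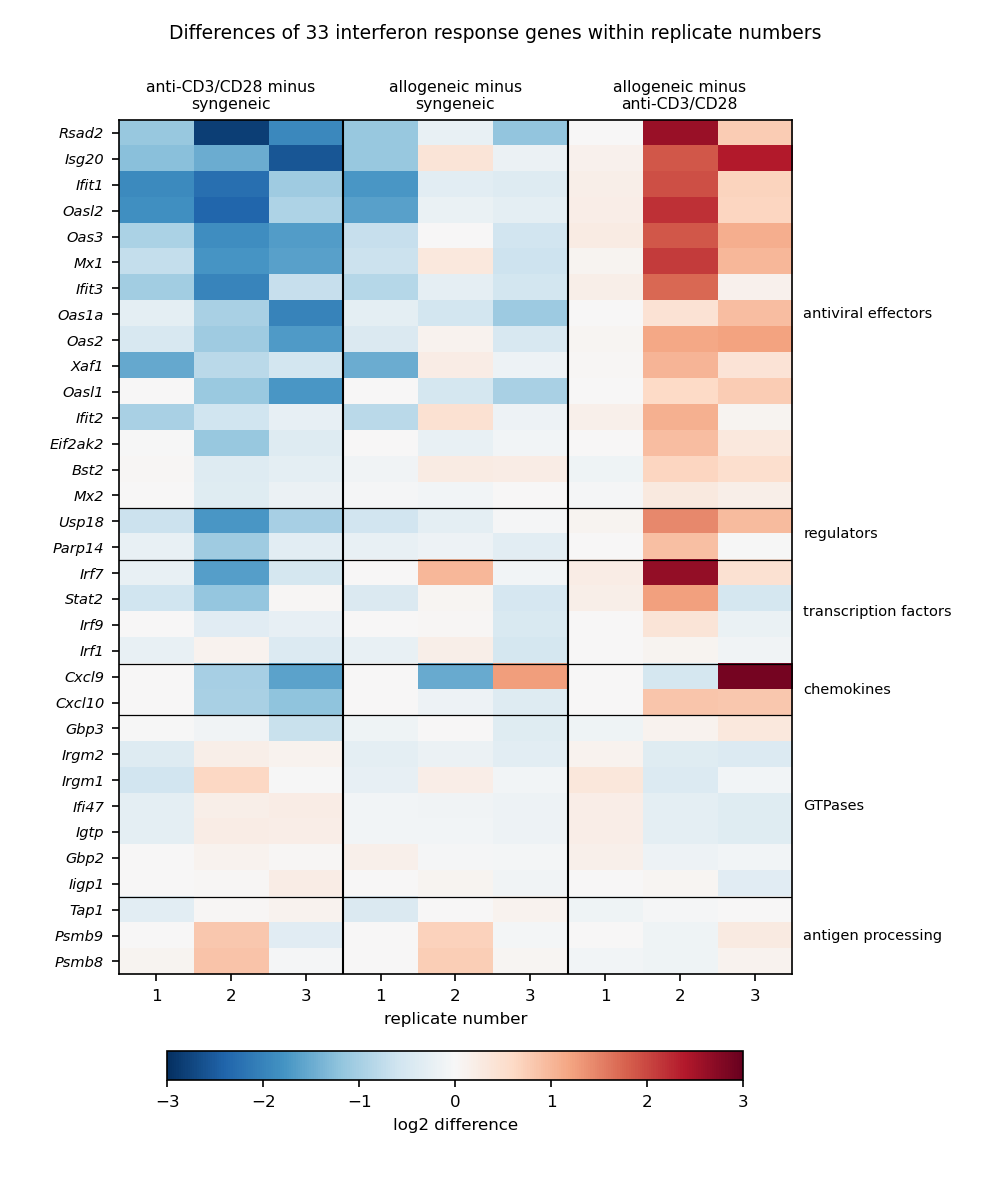
Log2 differences between cultures (colour, blue lower and red higher) within replicate numbers 1 to 3 (columns) for the 33 genes (rows, grouped by role). Antiviral effectors are blue for antibody minus syngeneic culture in most cells, with Rsad2 at −2.82 in number 2, and the allogeneic minus antibody cells of number 1 stay within 0.335 of 0.

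Of 105 further genes of the interferon pathway, 84 were measured, and 0 were called in any comparison in limma, with or without the block. Between antibody and syngeneic cultures 19 of the 84 were lower and 2 higher at an unadjusted p under 0.05 with the block, against 4.56% and 2.23% of all genes, and 25 were lower and 4 higher in all 3 numbers, against 9.15% and 7.8%. Without the block 7 were lower, against 0.775%, and 0 higher. Between allogeneic and syngeneic cultures 4 of the 84 were lower and 0 higher with the block, against 2.21% and 2.33%, and 19 were lower and 3 higher in all 3 numbers, against 7.96% and 7.29%. Between allogeneic and antibody cultures 4 were higher and 0 lower with the block, against 0.792% and 0.335%, and 16 were higher and 2 lower in all 3 numbers, against 4.39% and 2.58%.

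Interferon genes themselves were measured for 8 of 17 listed, and 5 of these never exceeded the array median, Ifnb1 and Ifna9 among them. Ifng, the gene of interferon gamma, stood at 8.07, 9.76 and 10.93 in syngeneic, at 10.97, 9.42 and 10.85 in allogeneic and at 10.73, 9.05 and 9.53 in antibody cultures. Its syngeneic array of number 1 was the lowest of the 9, and its groups overlapped. The receptor genes Ifnar1, Ifnar2 and Ifngr1 differed between antibody and syngeneic cultures by −0.23, −0.31 and −0.39.

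The lists differed in how evenly their genes were lower with antibodies. The 10 measured kinases and factors had a median log2 difference of −0.08, with 8 lower and 2 higher means. The 11 feedback genes had −0.14, with 6 lower and 5 higher, and the 14 sensors and adaptors −0.37, with 10 lower and 3 higher. Irf4, a factor of lymphocyte activation, was higher in all 3 numbers, at 9.13, 9.37 and 9.71 with antibodies against 6.52, 9.08 and 9.53, and most of its mean difference of 1.03 ± 0.65 (SE, with the block) came from number 1.

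Jak2, a kinase of the interferon gamma receptor and of many cytokine receptors, was lower in each number with antibodies, at 9.98, 9.13 and 9.48 (log2 −1.02 ± 0.21 SE with the block, adjusted p = 0.677 in limma). Without the block its SE was 0.43. Socs3, a feedback inhibitor of cytokine receptors, stood at 10.77, 10.30 and 11.09 against 9.40, 7.81 and 9.22, so that its groups did not overlap. Ifih1, the RNA sensor MDA5, differed by −1.08, and Herc6, an interferon-induced ligase of the HERC family, by −1.74. Ifitm3, which blocks virus entry, differed by −2.55, at 8.68, 10.25 and 11.17 against 6.50, 8.31 and 7.67. Among the 35 measured genes of the list of other induced genes, 12 were lower in all 3 numbers with antibodies and 0 were higher, and the median was −0.34.

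The labelled cell type was checked with marker genes. All 11 measured T cell markers lay above the array median on all 9 arrays. Genes of other cells were present as well and differed between cultures. The 14 measured macrophage and monocyte markers had mean levels of 6.38 to 7.45 in syngeneic, 5.12 to 5.91 in allogeneic and 4.53 to 5.75 in antibody cultures. All 14 had a lower mean in both stimulated cultures, 2 of the 14 exceeded the array median on every array, and 2 on none. The 15 dendritic cell markers had 7.88 to 9.55, 7.70 to 9.53 and 7.58 to 7.85, and all 15 had a lower mean with antibodies than in syngeneic culture. Csf1r, a receptor that marks macrophages, stood at 8.71, 9.99 and 9.21 in syngeneic, at 4.37, 5.91 and 6.63 in allogeneic and at 4.28, 5.58 and 4.26 in antibody cultures. Neither stimulated group of Csf1r overlapped the syngeneic one. The 7 further plasmacytoid dendritic cell markers and the 9 granulocyte markers had medians of −0.12 and −0.15 between antibody and syngeneic cultures. Within numbers 1, 2 and 3 the granulocyte medians were 0.00, −0.04 and −0.65. On average 3 of the 9 were lower by more than 1, and 4 had a higher mean. S100a9 stood at 9.25 in syngeneic and at 3.73 in antibody culture of number 3. Of the 9, 5 never exceeded the array median.

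The medians of the marker lists and of the antiviral genes were set side by side within each number. In number 1 the allogeneic minus syngeneic medians were −0.71 for macrophage markers, −0.09 for dendritic cell markers and −0.69 for the antiviral effectors. In number 2 the allogeneic culture was lower than the syngeneic by a median of 1.62 for macrophage markers and 0.90 for dendritic cell markers, and the antiviral effectors differed by −0.07. In number 3 the macrophage markers were lower by 1.25, the dendritic cell markers differed by −0.02 and the antiviral effectors by −0.39. Between antibody and syngeneic cultures the macrophage markers had medians of −0.74, −1.45 and −1.96 in numbers 1, 2 and 3. The dendritic cell markers had −0.20, −0.75 and −0.94, and the antiviral effectors −0.94, −1.13 and −1.06. The medians of these lists were thus negative in every number. T cell markers had a median of 0.28 in that comparison. The part of these cells in the interferon signals was not tested.

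**Figure D4:**
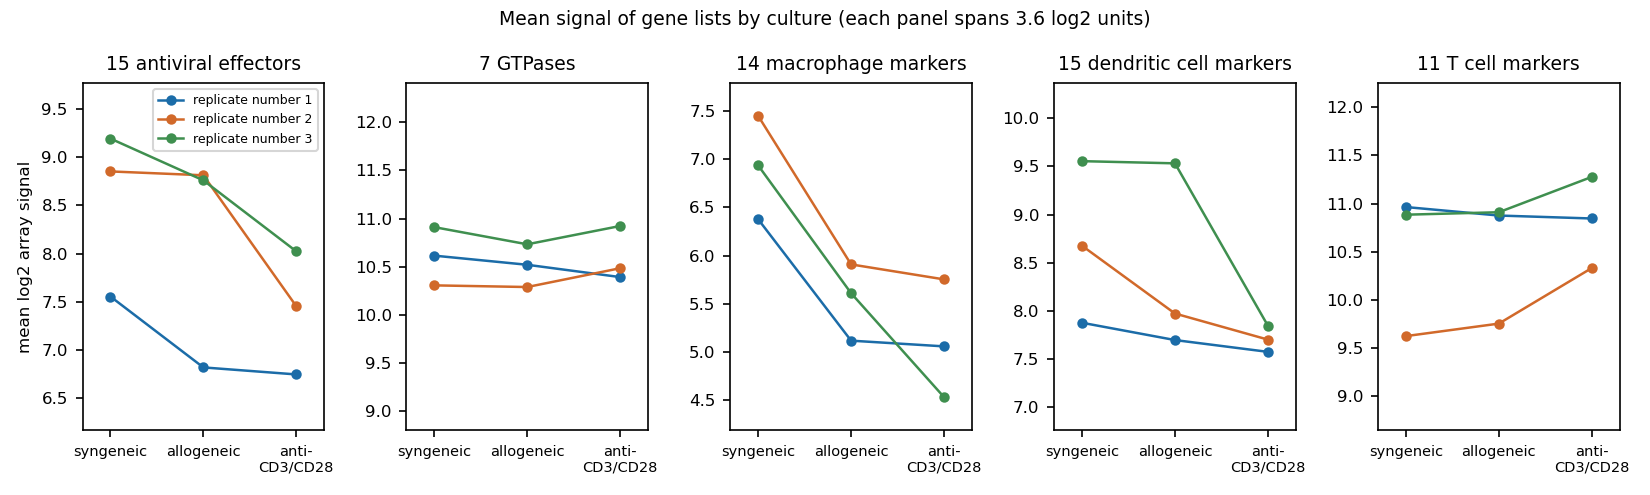
Mean log2 array signal (vertical axis, the same span in each panel) of 2 groups of interferon response genes and 3 marker lists in the 3 cultures, with each line joining the arrays of 1 replicate number. In number 2 the antiviral effectors average 8.85 in syngeneic, 8.81 in allogeneic and 7.45 in antibody culture, while the macrophage markers average 7.45, 5.91 and 5.75. In number 1 the antiviral effectors average 7.56, 6.82 and 6.75 and the macrophage markers 6.38, 5.12 and 5.06.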

How the data were processed

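The authors deposited log2 values for each probe set. RMA is the only tool named for them, per the submitters' processing notes, with software, version and choice of arrays not given in the sources used here. Across 9 arrays, a number that limits all precision, there were 45101 probe sets. Control probe sets (64), those listed for several genes (932) and those with no gene listed (9160) were left out. The other 34945 were named from the platform annotation, 34741 of them updated by gene ID, and gave 18193 genes at their brightest probe set.

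The tests used limma 3.58.1 (R 4.3.3; 1 mean per group, all 9 arrays, intensity trend, Benjamini-Hochberg adjustment over all genes, threshold 0.05), without further normalization, and checked on simulated data. The median SE was 0.639, or 0.156 with the replicate number as a block. Deviations from the group means correlated at 0.811 to 0.921 between arrays of 1 number, which therefore pairs them. The genes and lists were chosen with earlier results of these data known. Any of the 33 genes could be named, and of each pathway list up to 4 genes with the smallest p without the block, and of each marker list up to 4 of the highest mean. Alternatives were the block, quantile normalization, median centring, a filter at the 40th percentile of mean signal, no trend, 2 groups alone, averaged probe sets, and arrays left out.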

Additional observations from a re-analysis of the deposited data

How the results depend on the processing

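With the replicate block and under every other alternative, limma called 0 of the 33 genes and 0 of the 84 pathway genes in each comparison. Over all genes, centring the arrays on their medians called 1 gene (allogeneic against syngeneic) and 1 gene (antibody against syngeneic), and no other setting called any. Centring also made 2 of the 33 genes, in place of 0, lower in all 3 numbers in allogeneic than in antibody culture, and 5 were lower in numbers 2 and 3 when number 1 was left out. That last setting, the single arrays left out with the block, and the fit without number 1 with the block were chosen after the data were seen.

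Leaving out 1 array without the block compares groups of different numbers. The median of the 33 genes then ran from −0.58 to 0.14 for allogeneic against syngeneic: −0.58 without syngeneic replicate 1, 0.09 without syngeneic replicate 3, and 0.14, −0.33 and −0.42 without allogeneic replicates 1, 2 and 3. For antibody against syngeneic it ran from −1.10 to −0.19, the values without syngeneic replicates 1 and 3, with −0.30 and −0.88 without antibody replicates 1 and 3. For allogeneic against antibody it was 0.95, 0.25 and −0.0012 without allogeneic replicates 1, 2 and 3, and 0.17 and 0.74 without antibody replicates 1 and 3. With the replicate block the same medians ran from −0.26 to −0.09, from −0.68 to −0.24 and from 0.18 to 0.47, with the smallest sizes without allogeneic replicate 1, antibody replicate 2 and allogeneic replicate 2. The antiviral effectors had a median of −0.98 to −1.16 with antibodies under quantile normalization, centring, the filter and averaged probe sets, and the GTPases 0.04 to 0.15. Centring put the median of all genes at 0.11 for antibody against syngeneic and −0.11 for allogeneic against antibody. Under alternatives that kept all arrays compared, 5 of 230 values of the 33 genes changed sign for antibody against syngeneic, 7 for allogeneic against syngeneic and 6 for allogeneic against antibody. With arrays left out these were 39, 73 and 45 of 396, and none was called.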
